A study of Bos taurus with 55 samples.

Results

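The mitochondrial ribosomal protein genes are the nuclear genes whose symbols start with MRPL or MRPS. Of the 6636 genes that the deposited table could name, 61 had such a symbol, 38 of them MRPL and 23 MRPS, and each was measured by 1 probe set. Another 17 symbols of this kind in the bovine RefSeq table (11 MRPL and 6 MRPS, among them MRPS12 and MRPS18C) had no row and were not analysed here. Members were taken by symbol and not by measured values.

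Mitochondria carry their own ribosome, which descends from that of bacteria and translates the few respiratory chain and ATP synthase subunits encoded in mitochondrial DNA. Its RNAs come from the mitochondrial genome, but its proteins are encoded in the nucleus, made in the cytosol and imported. The large subunit (MRPL) forms the peptide bond and the small subunit (MRPS) reads the mRNA. Each holds proteins with a bacterial counterpart and others found only in mitochondria. The secretory epithelium of a lactating udder makes milk fat, protein and lactose, a work that draws on mitochondrial ATP.

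RNA from mammary biopsies of 28 mid-lactation dairy cows (Holstein-Friesian) was hybridised to 1-colour Affymetrix arrays to study how unsaturated fatty acids in the feed act on the gland. For 23 days (period I, ending at a mean of 176 days in milk) the concentrate carried 2.7% rapeseed oil, soybean oil, linseed oil or an equal mix of these, with 7 cows on each, while all cows also grazed. The oil was then left out for all cows over 28 days of control feeding (period II, ending at a mean of 204 days in milk), with arrays from 27 of them, all but 1 linseed cow. No cow ate the control diet first. The effects of the oils, of period order and of advancing lactation cannot be told apart.

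The array names carry 2 prefixes, used here as array batch: 25 of 28 period I arrays were in batch 1 and 25 of 27 period II arrays in batch 2, so batch and period nearly coincide. Of the 55 arrays, 48 correlated with the others at a mean r of at least 0.961, and 7 stood apart at 0.911 to 0.951, from 6 cows (cows 1, 2, 5, 10, 12 and 15). Mean MRPL levels on those 7 arrays lay inside the range of the rest, from 6.01 to 6.16 in period I (rest 5.90 to 6.35) and from 5.85 to 6.06 in period II (rest 5.79 to 6.21). The same 4 period II arrays lay above the other 23 in luminal epithelium markers (mean level 7.83 to 8.26, rest 6.05 to 7.36) and fibroblast markers (9.06 to 10.2, rest 7.34 to 8.77). The milk protein genes, which mark the labelled tissue, had mean log2 levels of 13.0 to 13.6 in period I and 13.2 to 13.7 in period II on the other arrays, and reached down to 12.5 and 12.4 on the 7 apart.

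Levels below are log2 of the deposited intensity, and a change is the oil period minus the control period of the same cow, with its standard error over 27 cows. A gene was called when the adjusted p of limma, with the cow as a block and Benjamini-Hochberg adjustment over all 10680 probe sets, was under 0.05. A "higher" gene was higher on the oil diets than on the control diet that followed. In a biopsy, fewer cells of a type and less RNA per cell cannot be told apart.

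More mitochondrial ribosomal protein genes were called higher than lower in the oil period. Of the 61, 23 (37.7%) were called higher and 6 (9.84%) lower, while the shares among all probe sets were 18.8% higher and 15.6% lower. The change was above 0 for 47 of the 61 genes (77.0%), against 55.7% of all probe sets, and the median change was 0.15 against 0.029. The share above 0 was also 75.6% for the 41 cytosolic ribosomal proteins, with a median of 0.051. Over the other mitochondrial gene lists below, of 4 to 13 measured genes, that share ran from 40% to 100%. Changes were moderate: the 29 called genes moved by 0.19 to 0.69 log2 units, and in each of them the ranges of the periods overlapped. With each array centred on its median the share of higher calls among all calls went from 54.6% to 71.9% over all probe sets. Over the members it went from 79.3% to 84.2%. Of the 61 members 32 were then higher and 6 lower, beside 29.4% and 11.5% of all probe sets.

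**Figure D1:**
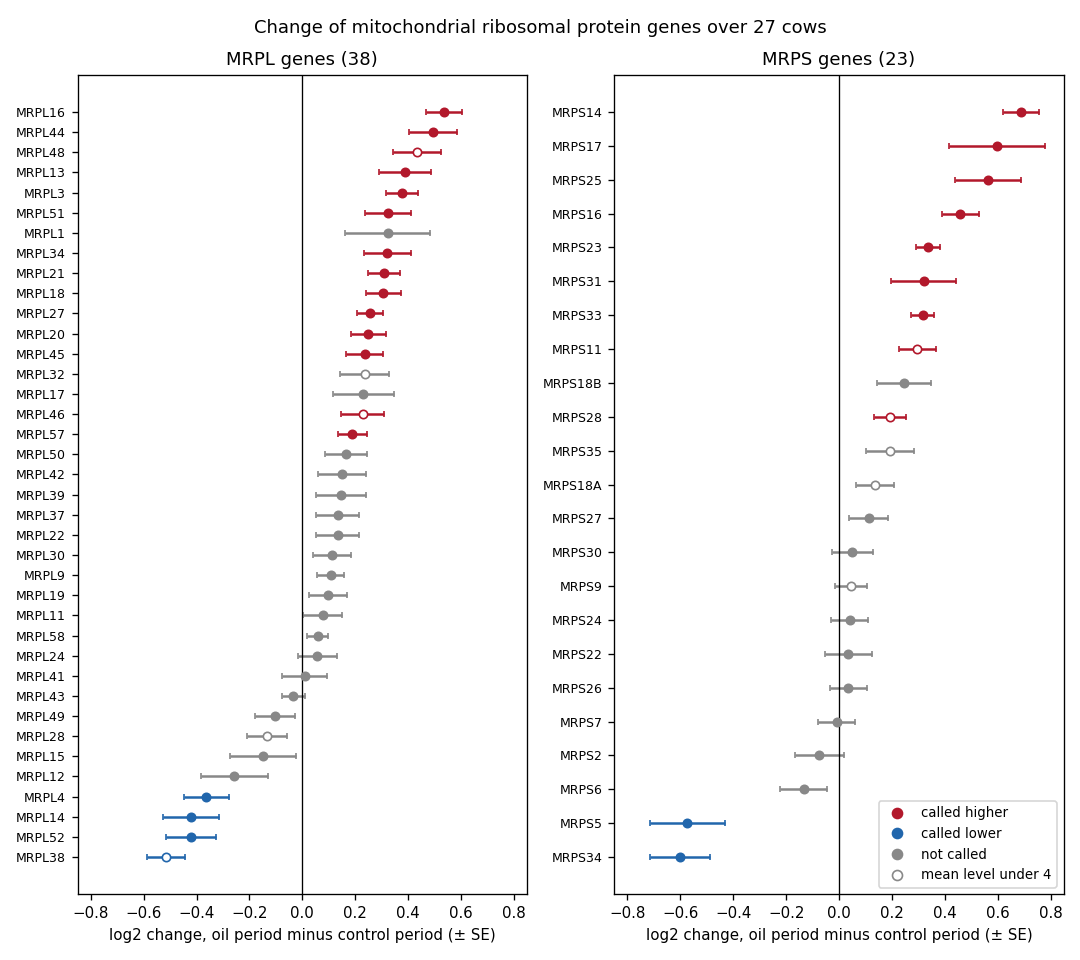
Log2 change of each gene between the oil and the control period (x axis, with standard error over 27 cows), with MRPL genes on the left and MRPS genes on the right. Red genes were called higher, blue lower and grey not called, and open points have a mean level under 4; the 23 red genes reach 0.69 (MRPS14) and the 6 blue genes reach -0.60 (MRPS34).

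Counts were similar in both subunits. Among MRPL genes 14 were called higher, 4 lower and 20 neither, with a median change of 0.15. Among MRPS genes 9 were higher, 2 lower and 12 neither, with a median of 0.14. Averaged over a subunit's genes within each cow, the MRPL change ran from -0.20 to 0.38 (median 0.12) and was above 0 in 23 of 27 cows, and the MRPS change ran from -0.12 to 0.42 (median 0.11) and was above 0 in 24. The same average over all probe sets was above 0 in 10 of 27 cows. With the median within a cow in place of the mean, the count of cows above 0 was 21 for all probe sets, 23 for MRPL and 24 for MRPS genes. The middle cow's median was 0.018 over all probe sets and 0.13 for either subunit.

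**Figure D2:**
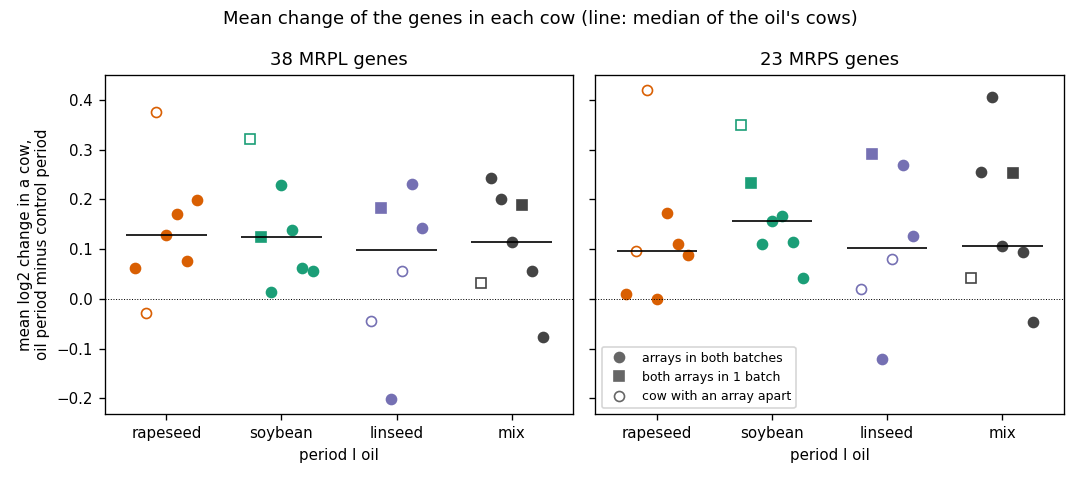
Mean log2 change of the 38 MRPL genes (left) and the 23 MRPS genes (right) in each of the 27 cows (points), by the oil of period I, with a line at the median of the oil's cows. Squares mark the 5 cows with both arrays in 1 batch and open symbols the 6 cows with an array apart; most points lie above 0, and the highest is 0.42, the MRPS mean of cow 12.

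Division by kind of protein gave similar counts. In the large subunit 8 of 22 proteins with a bacterial counterpart were higher and 2 lower (median 0.18), and of 16 found only in mitochondria 6 were higher and 2 lower (median 0.15). In the small subunit these numbers were 5 higher and 1 lower of 11 (median 0.045), and 4 higher and 1 lower of 10 (median 0.22). MRPS18A and MRPS30 carry an MRPS symbol although their proteins sit in the large subunit, and neither was called.

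MRPL16, counterpart of a bacterial protein near the tRNA sites of the large subunit, rose most among MRPL genes. Its log2 level ran from 6.07 to 7.32 (median 6.64) in period I and from 5.42 to 6.71 (median 6.14) in period II. The ranges overlapped, yet the oil period was the higher one in 25 of 27 cows. The change was 0.54 ± 0.068, or 1.45-fold (limma adjusted p = 1.33e-06).

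MRPL44, which resembles bacterial ribonuclease III and whose human mutations cause cardiomyopathy, had levels of 5.10 to 6.62 (median 5.83) in period I and 4.20 to 5.98 (median 5.35) in period II. It was higher in 26 of 27 cows, the remaining cow standing at -0.21. The change was 0.49 ± 0.092, or 1.41-fold (limma adjusted p = 0.000164).

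MRPL3, a protein close to the peptidyl transferase centre that is also linked to human cardiomyopathy, ran from 7.95 to 9.29 (median 8.43) in period I and from 7.61 to 8.68 (median 8.07) in period II. Single cows shifted by -0.21 to 1.06, and 24 of 27 were higher in the oil period. The change was 0.38 ± 0.059 (limma adjusted p = 2.16e-05). This call did not hold with array batch beside the cow (0.36, adjusted p = 0.0740), and within batch 1 the estimate was -0.062.

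Further MRPL genes were called higher. MRPL48, found only in mitochondria, changed by 0.43 ± 0.090 from a median of 3.58 to 4.07, on a probe set with a mean level under 4. MRPL13, a counterpart of a bacterial protein of the large subunit, changed by 0.39 ± 0.099, and MRPL51, found only in mitochondria, by 0.32 ± 0.085. All 3 were called, but each was estimated below 0 with array number in place of the cow (-0.33, -0.53 and -0.29). MRPL18, MRPL20, MRPL21, MRPL27, MRPL34, MRPL45, MRPL46 and MRPL57 made up the rest of the 14, with changes from 0.19 to 0.32. MRPL45 is the protein that holds the ribosome at the inner membrane. MRPL46, on a probe set with a mean level under 4, lost its call when any of cows 1, 2, 4, 19 or 27 was left out.

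Against this direction, 4 MRPL genes were lower in the oil period. MRPL38, a large subunit protein found only in mitochondria, ran from 2.49 to 3.35 (median 2.92) in period I and from 2.78 to 4.12 (median 3.36) in period II. It was lower in 25 of 27 cows, on a probe set with a mean level under 4. The change was -0.52 ± 0.073, a 1.43-fold lower level (limma adjusted p = 5.79e-06).

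MRPL52, also found only in mitochondria, ran from 5.05 to 6.71 (median 5.66) in period I and from 5.67 to 7.16 (median 6.15) in period II. The oil period was the lower one in 22 cows. The change was -0.42 ± 0.095 (limma adjusted p = 0.00112), and with array batch beside the cow it was -0.61 with an adjusted p of 0.0587. MRPL4, which lines the tunnel through which the new peptide leaves, changed by -0.36 ± 0.086, and MRPL14, the binding site of the assembly factor MALSU1, by -0.42 ± 0.11. Both were called, yet MRPL14 was at 0.020 with array batch beside the cow and both were above 0 with array number in place of the cow (0.31 for MRPL14 and 0.19 for MRPL4).

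Among MRPS genes MRPS14 alone was higher in every cow. It is the counterpart of a bacterial protein in the head of the small subunit. Its level ran from 6.60 to 7.54 (median 6.96) in period I and from 5.75 to 6.98 (median 6.31) in period II. It was higher in the oil period in all 27 cows, by 0.090 to 1.32. The change was 0.69 ± 0.069, or 1.61-fold (limma adjusted p = 6.43e-08).

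MRPS16, a small subunit protein whose loss in humans causes fatal lactic acidosis in newborns, ran from 5.14 to 6.62 (median 5.78) in period I and from 4.76 to 5.89 (median 5.38) in period II. It was higher in 23 of 27 cows. The change was 0.46 ± 0.070, or 1.37-fold (limma adjusted p = 1.64e-05).

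MRPS25, found only in mitochondria, spread more widely, from 3.15 to 5.58 (median 4.64) in period I and from 2.78 to 4.64 (median 4.16) in period II. It was higher in 22 cows, and the change of single cows reached from -0.77 to 2.20. The mean change was 0.56 ± 0.13 (limma adjusted p = 0.00106). MRPS17, whose bacterial counterpart binds rRNA early in assembly, was wider still, with changes of -1.93 to 2.22 in single cows and a mean of 0.60 ± 0.18 (limma adjusted p = 0.0116). MRPS17 was no longer called with array batch beside the cow (adjusted p = 0.133) and stood at -0.48 with array number in place of the cow.

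MRPS23 and MRPS33, both found only in mitochondria, moved little but in nearly every cow. MRPS23 changed by 0.34 ± 0.046 (limma adjusted p = 4.47e-06) and MRPS33 by 0.32 ± 0.045 (limma adjusted p = 6.21e-06), each higher in 26 of 27 cows. With array number in place of the cow, MRPS33 stood at -0.019. MRPS31 changed by 0.32 ± 0.12 (limma adjusted p = 0.0420), and leaving out any 1 of 15 cows ended that call, with an adjusted p of up to 0.0707. Its estimate was -0.40 within batch 1 and -0.42 with array number in place of the cow. MRPS11 and MRPS28, on probe sets with a mean level under 4, completed the 9 at 0.30 and 0.19.

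The 2 lower MRPS genes fell in most cows, with median changes within a cow of -0.64 (MRPS34) and -0.57 (MRPS5). MRPS34, needed for a stable small subunit and mutated in some human Leigh syndrome, ran from 3.62 to 6.00 (median 5.27) in period I and from 4.46 to 6.54 (median 5.67) in period II. It was lower in 23 of 27 cows, by up to 2.11. The change was -0.60 ± 0.11, 1.52-fold lower (limma adjusted p = 0.000201). With array batch beside the cow it was -0.36 (adjusted p = 0.349), and with array number in place of the cow 0.55.

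MRPS5, whose bacterial counterpart affects the accuracy of decoding, ran from 3.28 to 5.98 (median 5.00) in period I and from 4.40 to 6.53 (median 5.39) in period II. It was lower in 22 cows. The change was -0.57 ± 0.14, 1.49-fold lower (limma adjusted p = 0.00232), and it stayed below 0 under the other fits, at -1.34 with array batch beside the cow.

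**Figure D3:**
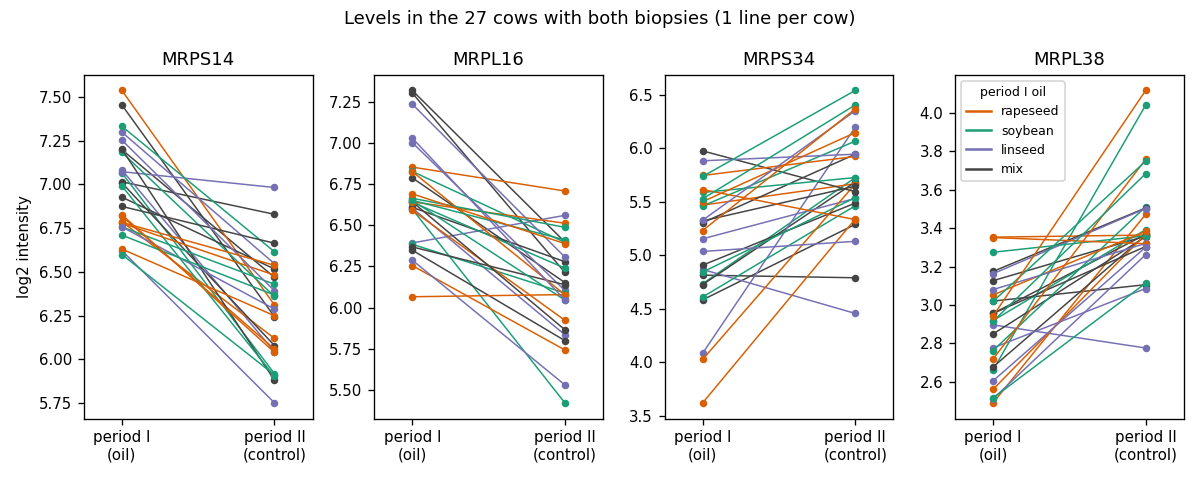
Log2 intensity (y axis, its own range in each panel) of MRPS14, MRPL16, MRPS34 and MRPL38 in periods I and II, with 1 line per cow for the 27 cows with both biopsies, coloured by the oil of period I. MRPS14 falls from period I to period II in all 27 cows and MRPL16 in 25, while MRPS34 rises in 23 and MRPL38 in 25.

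Several members with roles beyond ribosome structure were not called. MRPL12, the stalk protein that recruits translation factors and also binds mitochondrial RNA polymerase in human cells, stood at -0.26 ± 0.13 (limma adjusted p = 0.112), lower in 20 cows. With array batch beside the cow, MRPL12 was at -0.96 with an adjusted p of 0.0154. MRPS18B, a relative of bacterial S18 that is counted above among the small subunit proteins found only in mitochondria, stood at 0.25 ± 0.10 (limma adjusted p = 0.0604).

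MRPL11, at the base of the same stalk, stood at 0.076 ± 0.073, and MRPL58, a peptidyl-tRNA hydrolase built into the large subunit, at 0.058 ± 0.040. MRPS7, counterpart of a bacterial protein at the decoding site, stood at -0.0087 ± 0.069, and MRPS22, found only in mitochondria, at 0.036 ± 0.087. The changes of MRPS27, an RNA-binding protein of the pentatricopeptide repeat kind, of MRPS18A and of MRPS30 were 0.11, 0.14 and 0.051. None of these passed the test. Among the 32 members not called, 24 had a change above 0 and 8 below.

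Genes that work beside the mitochondrial ribosome gave mixed counts. Of 5 mitoribosomal proteins with other symbols only CHCHD1 was called (0.30 ± 0.076, higher in 19 cows), and GADD45GIP1 (-0.21) and AURKAIP1 (0.12) were not. Of 25 listed assembly and rRNA modification factors 13 were measured, with 3 higher and 2 lower. These included MALSU1 (0.28), which binds MRPL14, the GTPase MTG2 (0.22) and the RNA helicase DHX30 (-0.55). Of 9 measured translation factors 1 was higher, GFM2, which helps to split used ribosomes (0.16), while the elongation factor TSFM (0.19) and the recycling factor MRRF (0.20) were not called.

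Of 9 measured mitochondrial tRNA synthetases 3 were higher and 3 lower. RARS2 was at 0.31, and SARS2 and FARS2, both under a mean level of 4, were at -0.38 and -0.37. Of 4 measured genes for mitochondrial transcription and genome upkeep 3 were higher, namely SSBP1, which coats single-stranded mitochondrial DNA (0.38, higher in 26 cows), the transcription factor TFB2M (0.31) and the nuclease MGME1 (0.25). Of 4 measured nuclear regulators YY1 was lower (-0.47, lower in 26 cows), and PPARGC1A (0.30) and NRF1 (0.21), on probe sets with mean levels under 4, were higher. MTG2, DHX30, GFM2, MRRF, MGME1 and TOMM40 were also on such dim probe sets.

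Markers of mitochondrial import and mass counted 1 higher and 2 lower of 13, with a median of 0.038. The first 3 by p were the import receptor TOMM20 (0.32), the import pore TOMM40 (-0.22) and the inner membrane scaffold PHB2 (-0.49). The cytosolic ribosomal proteins, 41 genes, counted 5 higher and 3 lower with a median of 0.051. Among those called were RPS15 (0.20) and RPL30 (-0.21).

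Markers of several cell types differed between the periods as well. None of 8 luminal epithelium markers was called higher and 4 were called lower (median change -0.48), and their mean level ran from 5.89 to 7.62 in period I and from 6.05 to 8.26 in period II, the highest of each period on an array apart. Of 8 fibroblast markers 5 were lower (median -0.45, mean level 6.93 to 10.1 and 7.34 to 10.2, the highest again on arrays apart), and of 7 endothelium markers 4 were lower (median -0.34, 3.33 to 4.55 and 3.54 to 5.24). Of 6 milk protein genes 1 was lower (median -0.045). Adipocyte, skeletal muscle and erythrocyte markers counted 2 of 4, 3 of 6 and 1 of 4 higher, all on probe sets with mean levels under 4. Myoepithelium, macrophage and lymphocyte markers each had 1 gene lower, of 6, 7 and 7, and 1 lymphocyte marker was higher. Of 4 neutrophil markers limma called 0, with 0 at an unadjusted p under 0.05. The part of these markers in the changes of mitochondrial ribosomal protein genes was not tested.

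Array batch and array order also move with the period. With array batch beside the cow, where the period estimate rests on 5 cows whose arrays share a batch (cows 1 and 2, each with a period II array apart, and cows 7, 9 and 14), 16 of the 29 calls held their direction and threshold. The median change was then 0.22 for MRPL and 0.33 for MRPS genes. The fits within a batch set its period I arrays against its period II arrays, without pairing by cow. Within batch 2, which has only 3 period I arrays, the medians were 0.11 and 0.12 with 5 calls held. Within batch 1, which has only 2 period II arrays, those of cows 1 and 2 and both apart, they were 0.10 and 0.28 with 4 calls held. With array number (the running number in the array names) in place of the cow, the medians were 0.037 and 0.072, 2 calls held (MRPL16 and MRPS25), and 29 of 61 genes, 11 of the called ones among them, had the opposite sign. Array numbers ran from 1 to 28 in period I and from 29 to 55 in period II, in the order of the cow numbers. The periods share no numbers, so this fit extends a trend over cow numbers from period to period. It cannot separate array order from period.

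MRPS14 stayed above 0 in each of these fits: 0.90 with array batch and cow (limma adjusted p = 0.00111), 0.59 within batch 1 (0.0819), 0.87 within batch 2 (0.00574) and 0.30 with array number (0.153). MRPL16 stood at 0.76, 0.88, 0.51 and 0.54 in the same fits. In all, 17 of the 29 called members kept their direction under 10 other fits (9 for genes with a mean level under 4), which changed the block, batch, array number, scaling, dim filter or cows. Of these 17, 14 were higher and 3 lower. Leaving out the cow block or the dim probe sets does not alter a gene's estimate, so those fits could not turn a direction. The fit with array number could not separate array order from period.

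**Figure D4:**
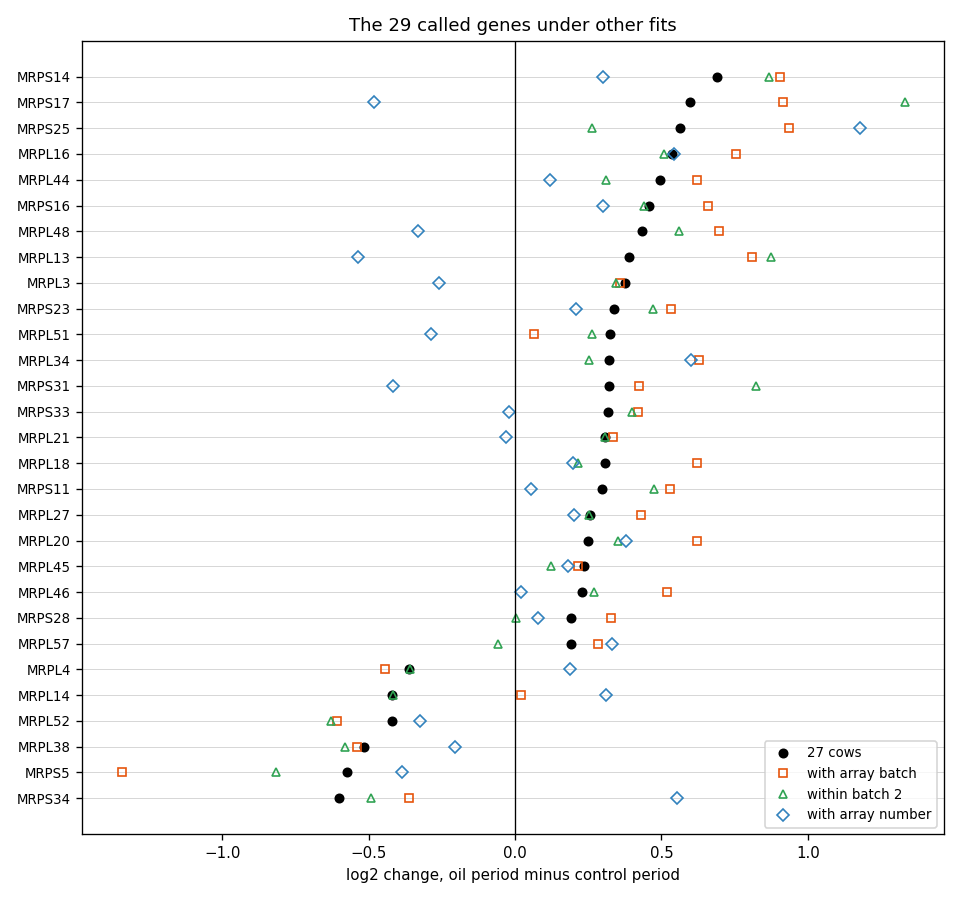
Log2 change (x axis) of the 29 called genes in the fit over 27 cows (black), with array batch beside the cow (orange squares), within array batch 2 (green triangles) and with array number in place of the cow (blue diamonds). Triangles and diamonds do not pair arrays by cow, and the array numbers behind the diamonds do not overlap between the periods. MRPS14 and MRPL16 stay above 0 and MRPS5, MRPL52 and MRPL38 below 0 in each fit drawn, while 11 diamonds lie on the other side of 0 from their black point.

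Single genes were only weakly correlated over cows, and the means of the subunits, each over many genes, were closely correlated. The mean pairwise correlation of within-cow changes over 27 cows was 0.066 among the 61 genes, 0.055 among MRPL and 0.059 among MRPS genes, against 0.0042 over all probe sets, and 0.066 among the 61 became 0.063 over the 21 cows without an array apart. Between the mean MRPL and the mean MRPS change, r over 27 cows was 0.848. The genes share arrays, and a mean over many genes evens out the scatter of single genes, so these are descriptions without a test. The r between means has no counterpart from other gene sets here.

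On each oil separately the counts were smaller, with 6 or 7 cows behind each. Soybean oil had the most, 11 members higher and 4 lower (29 at an unadjusted p under 0.05), beside 6.29% of all probe sets higher and 7.22% lower. Rapeseed oil had 3 higher and 1 lower (18 unadjusted), beside 1.54% and 2.33%. Linseed oil had 2 higher and none lower by limma (16 unadjusted), beside 0.403% and 0.89%, and the mix 2 higher and none lower by limma (17 unadjusted), beside 0.131% and 0.0187%.

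The median change of the members was 0.18 on rapeseed, 0.17 on soybean, 0.062 on linseed and 0.13 on the mix, where all probe sets had 0.047, 0.040, -0.0066 and 0.011. Averaged over the 61 genes, the change was above 0 in 7 of 7 rapeseed cows, 7 of 7 soybean cows, 4 of 6 linseed cows and 6 of 7 cows on the mix. These counts rest on few cows. Without cow 4 or cow 27 the rapeseed count of higher genes was 0, and without cow 12 it was 1, while the lower count was 0 without cow 4, 12, 23 or 27 and 2 without cow 22. Over all 10680 probe sets the rapeseed higher count went from 165 to 68, 46 and 55 without cow 4, 27 or 12. The lower count there went from 249 to 114, 110, 147 and 87 without cow 4, 12, 23 or 27, and to 282 without cow 22. The soybean counts were 6 higher without cow 2 and 2 lower without cow 2 or 13. Over all probe sets the soybean higher count went from 672 to 265 without cow 2. The lower count there went from 771 to 382 and 658 without cow 2 or 13. The linseed count was 0 without cow 7, 15 or 25 and 1 without cow 8, and the mix count was 0 without cow 3, 6 or 14, 1 without cow 1 or 11 and 4 without cow 16. Over all probe sets the linseed higher count went from 43 to 11, 7, 14 and 17 without cow 7, 15, 25 or 8. For the mix it went from 14 to 1, 1 and 3 without cow 3, 6 or 14. It was 7 and 9 without cow 1 or 11, and 45 without cow 16.

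MRPS14 was called higher on all 4 oils. On rapeseed its level was 6.63 to 7.54 in period I and 6.04 to 6.54 in period II, and on the mix 6.87 to 7.45 and 5.88 to 6.83. In neither of those groups did the ranges of the periods overlap, whereas on soybean and linseed they did. The change was 0.62 ± 0.14 on rapeseed, 0.73 ± 0.14 on soybean, 0.68 ± 0.15 on linseed and 0.71 ± 0.14 on the mix (limma adjusted p = 0.0164, 0.00150, 0.0253 and 0.0450).

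MRPL16 was called higher on soybean, linseed and the mix, with changes of 0.47 ± 0.13, 0.69 ± 0.14 and 0.65 ± 0.13. On rapeseed it stood at 0.36 ± 0.13 and was not called (limma adjusted p = 0.120). The difference between oils was not called either.

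On soybean oil MRPS25 had the largest rise, from 3.27 to 4.64 (median 3.96) on the control diet to 4.40 to 5.33 (median 5.06) on the oil. It was higher in 6 of 7 cows, by 1.01 ± 0.23 (limma adjusted p = 0.00527), against 0.12 on rapeseed, 0.64 on linseed and 0.50 on the mix, where it was not called. MRPS16 was at 4.76 to 5.57 on the control diet and 5.73 to 6.17 on soybean oil, without overlap. It changed by 0.65 ± 0.13 (limma adjusted p = 0.00228).

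The lower genes on soybean oil were MRPS5 at -0.87 ± 0.28, MRPS34 at -0.71 ± 0.23, MRPL4 at -0.69 ± 0.16 and MRPL38 at -0.68 ± 0.14. MRPS5 and MRPS34 were lower in 7 of 7 cows and MRPL4 in 6. On rapeseed oil MRPL46, a large subunit protein found only in mitochondria, was higher in 7 of 7 cows by 0.56 ± 0.14 (limma adjusted p = 0.0215). Its probe set has a mean level under 4. MRPL3 was higher by 0.45 ± 0.12, and MRPL38 was lower by 0.62 on the log2 scale in 6 of 7 cows.

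**Figure D5:**
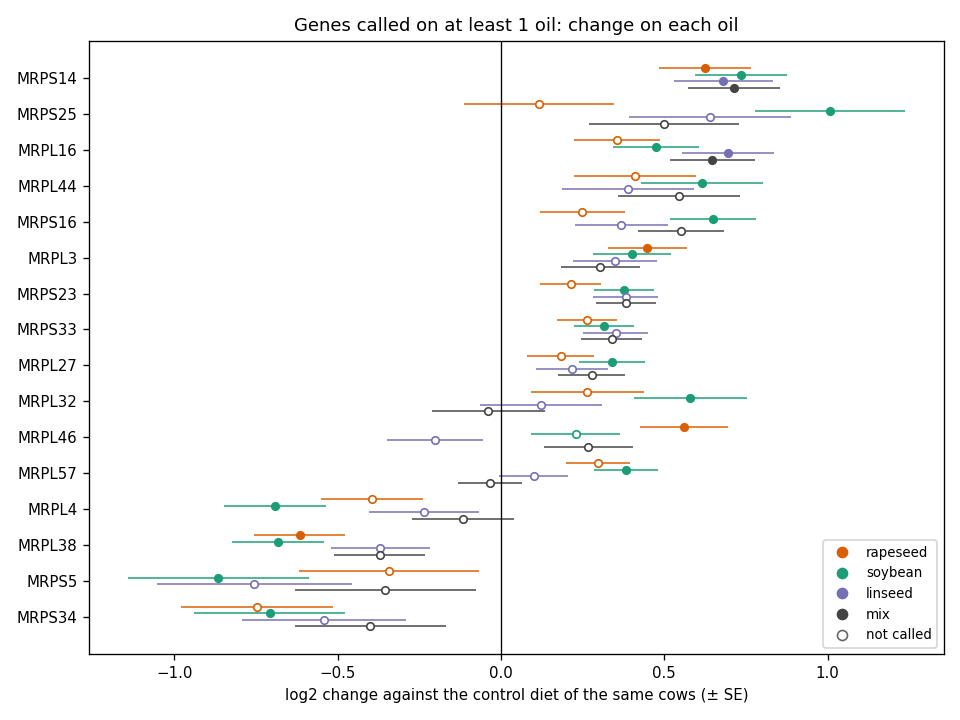
Log2 change against the control diet of the same cows (x axis, with standard error) for the 16 genes called on at least 1 oil, with 1 point per oil (7 cows each, 6 for linseed), filled where called and open where not. MRPS14 has 4 filled points between 0.62 and 0.73, and MRPS25 spreads from 0.12 on rapeseed to 1.01 on soybean.

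No member differed between oils at the threshold. For the difference of the change between the 4 oils, limma's F called 0 of 61 members, as it called 0% of all probe sets, and 2 members (3.28%) had an unadjusted p under 0.05 against 4.55% of all. MRPL46 had the smallest p (0.00784, adjusted p = 0.948), with a change of -0.20 on linseed against 0.56 on rapeseed. MRPL57, MRPS7, MRPS25 and MRPL4 followed, with unadjusted limma p from 0.0233 to 0.0808.

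Among the oils side by side in period I, limma's F called 0 members beside 0% of all probe sets, with 2 at an unadjusted p under 0.05 (3.28% against 2.59% of all). MRPL46 again came first, with mean levels of 3.64 on rapeseed, 3.35 on soybean, 3.36 on the mix and 3.13 on linseed (limma p = 0.0119, adjusted p = 0.99992). MRPL57, MRPL32, MRPS25 and MRPS9 came next. Among the same cows in period II, all on the control diet and grouped by their earlier oil, limma's F also called 0 members beside 0% of all probe sets, with 2 unadjusted (3.28% against 3.72% of all). MRPL4 came first there (limma p = 0.00970, adjusted p = 0.976), from 5.68 after the mix to 6.12 after soybean oil, followed by MRPL1, MRPL38, MRPL21 and MRPS18B. Sets of 7 cows limit what these tests can show.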

How the data were processed

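The authors deposited 1 table of linear probe set intensity. RMA and GCRMA were used, per the submitters' processing notes, which give neither versions nor roles. The deposited values were taken to log2 here with no further scaling. Of 11495 probe sets 112 were controls, and 703 with values identical to another were merged, which left 10680. Symbols were assigned by matching each probe set's RefSeq accession to NCBI's bovine gene table (no coordinates were used). Levels of different probe sets are not compared.

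Fits used limma 3.58.1 in R 4.3.3 with Benjamini-Hochberg adjustment, two-sided. The cow number in the labels pairs the arrays of 1 animal: deviations within a cow had a median correlation of 0.176, against 0.00849 between cows. Single cows ran from -0.200 to 0.676, and 17 of 27 were over 0.1. The fits were also run on simulated data with independent noise for each probe set and no batch effect. That run does not bear on the overlap of batch and period. Each cow is 1 replicate, and the number of arrays limits the precision.

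Genes, lists and classes were chosen with earlier results of these data known. Named with values are up to 6 rising and 6 falling called genes per subunit, 15 genes with known roles, up to 3 per oil and direction among called genes moving one way in all cows but at most 1, the 5 smallest p of each F test and up to 3 of each pathway list, 1 of which is not reported here. Alternatives changed the block, batch, array number, scaling, dim filter (mean level under 4) and cows.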

Additional observations from a re-analysis of the deposited data

Results flagged for a closer look

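Among 22 groups of 6 or 7 cows (subunit means and named genes by oil), 2 held a cow far from the rest by Dixon's test, which chance gives in about 1 of 20 groups. Cow 12 on rapeseed oil had a mean MRPS change of 0.42, well above the next rapeseed cow, and its period I array is among the 7 with low correlation to the others. Cow 8 on linseed oil had a change of -0.17 in MRPL16, while the other 5 linseed cows were higher in the oil period.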

How the results depend on the processing

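Counts of called genes are given in the order MRPL higher, MRPL lower, MRPS higher and MRPS lower, and were 14, 4, 9 and 2 over 27 cows. The shares of all probe sets called higher and lower follow in brackets (here 18.8% and 15.6%). Array batch beside the cow gave 8, 2, 6 and 1 (8.01% and 7.4%), with MRPL14 at 0.020. Within batch 1 they were 2, 1, 1 and 0 (1.94% and 3.65%), and MRPL14 (0.54), MRPL3 (-0.062), MRPL48 (-0.036), MRPL51 (-0.052), MRPS17 (-0.028) and MRPS31 (-0.40) changed sign. Within batch 2 they were 1, 1, 3 and 0 (2.13% and 1.65%), with MRPL57 at -0.057. With the cow as a random block and array batch they were 7, 3, 6 and 1 (10.6% and 8.68%). Array number in place of the cow gave 2, 0, 2 and 0 (4.2% and 3.46%). Under it the sign turned for MRPL13 (-0.53), MRPL14 (0.31), MRPL21 (-0.030), MRPL3 (-0.26), MRPL4 (0.19), MRPL48 (-0.33), MRPL51 (-0.29), MRPS17 (-0.48), MRPS31 (-0.42), MRPS33 (-0.019) and MRPS34 (0.55). Array numbers do not overlap between the periods, so this fit extends a trend over cow numbers from period to period. The cause of the sign turns was not tested.

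A pair of alternatives was chosen after seeing the data. The 22 cows with arrays in both batches gave 13, 4, 7 and 2 (14.1% and 12.8%). The 5 cows with both arrays in 1 batch gave 0, 0, 0 and 0 by limma (0% and 0%), with 18 members at an unadjusted p under 0.05 and MRPL14 at 0.020. Fewer cows were tested there. Without the cow block the counts were 15, 4, 8 and 2 (17.7% and 13.9%), and MRPS31 alone of the 29 lost its call. Centring gave 20, 4, 12 and 2 (29.4% and 11.5%) and quantile normalization 15, 4, 11 and 2 (16.9% and 15.4%), each with all 29 called genes kept. Restriction to mean levels of at least 4 left 51 members, with 12, 3, 7 and 2 (16.8% and 17.4% of the 4441 probe sets left). Leaving out the 6 cows with an array apart gave 14, 4, 8 and 2 (18.9% and 15.9%), without MRPL46 and MRPS28. Leaving out 1 cow at a time gave 13 to 15, 4 to 5, 8 to 10 and 2 (17.1% to 20.1% and 14.6% to 16.8%).

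By oil, without the cow block soybean had 2 lower, linseed 0 higher and the mix 1 higher (603, 8 and 15 of all 10680 probe sets). The random block with array batch left rapeseed with 1 higher and 0 lower (12 and 24 of all probe sets). Centring gave linseed 4 higher (89 of all probe sets). Without the cows with an array apart, rapeseed had 1 higher, soybean 7 and linseed 0 (117, 530 and 14 of all probe sets). Leaving out 1 cow at a time gave rapeseed 0 to 3 higher and 0 to 2 lower, soybean 6 to 11 higher and 2 to 4 lower, linseed 0 to 3 higher and the mix 0 to 4 higher. Over all probe sets these ranges were 46 to 156 and 74 to 282 for rapeseed, and 265 to 654 and 382 to 787 for soybean. The higher counts over all probe sets were 7 to 59 for linseed and 1 to 45 for the mix. The 3 F tests called 0 members in each alternative run, with 0 to 3 members at an unadjusted limma p under 0.05. The choice among rows of a gene was not run, since each member has 1 row. Dim probe sets limit the values of 10 members.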
